A study of Homo sapiens with 12 samples.

Results

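SOX and OLIG proteins are transcription factors, some of which help to set up and maintain glial cell identity. The account covers 10 of their genes: SOX4 and SOX11 (the SoxC pair), SOX2 (SoxB1), SOX5 and SOX6 (SoxD), SOX8, SOX9 and SOX10 (SoxE), OLIG1 and OLIG2. They were selected by name, as glial members of both families, from 19775 measured genes, with their differences between the lines already known. The set thus counts as chosen by its levels in shp105 and shControl cells, and its line differences are described without a test.

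U-87 MG is an established human line, labelled glioma. After stable transfection, 1 line of these cells expressed an RNA hairpin that targets p105 (shp105) and the other a control hairpin (shControl). For 16 h they received 100 uM temozolomide (TMZ), an alkylating drug used in glioma therapy, or the vehicle dimethyl sulfoxide (DMSO). The 4 groups were shp105 cells with TMZ, shp105 cells with DMSO, shControl cells with TMZ and shControl cells with DMSO, each measured on 3 Affymetrix arrays (n = 3 behind every group value here). The labels do not say whether a line is 1 clone, a pool or 1 transfection. Hairpin and line can therefore not be told apart, and p-values cover no more than the spread among these arrays, which the labels call biological replicates.

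SOX proteins bind DNA through a high-mobility-group box that recognises short A- and T-rich sequences. The SoxB1 factor SOX2 maintains neural stem cells, the SoxC factors act in neural progenitors, and the SoxE factors specify glia, with SOX9 acting early in astrocyte and oligodendrocyte precursors and SOX10 in oligodendrocytes. OLIG1 and OLIG2 are basic helix-loop-helix proteins that bind E boxes, mostly as dimers with E proteins. OLIG2 and SOX2 are widely used markers of glioma stem-like cells.

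Levels are log2 values per probe set, and a difference of 1 is a 2-fold change. The level of a dim gene was judged against 27 control probe sets for bacterial transcripts that were not added to the samples. These lay between 2.33 and 4.30, and a probe set is called above the controls on an array if it exceeded the brightest of them there. A gene is given by its probe set of highest mean unless another is named. On this measure SOX2, SOX5, SOX6, SOX9 and SOX10 were above the controls on all 12 arrays. OLIG2 was above them on 8 arrays. For SOX4 this probe set was above them on 6 arrays, all from shp105 cells, but 2 of its other probe sets were above them on all 12. SOX11, SOX8 and OLIG1 were not above them on any array by any of their probe sets. Of all 33 probe sets of the 10 genes, 11 were above the controls on all 12 arrays and 12 on none. The SOX2 probe set 228038_at was above them on no array and 213721_at on 9. SOX2, between 4.90 and 5.32, also lay much closer to the controls than SOX9, between 9.22 and 9.66.

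The arrays resembled each other closely, with median levels between 5.04 and 5.09. Pearson correlations across genes ran between 0.997 and 0.998 within a group and between 0.990 and 0.992 across lines. The targeted gene, NFKB1, whose product p105 is the precursor of an NF-kB subunit, had levels of 7.14, 7.22 and 7.14 in shp105 cells with TMZ and 7.17, 7.27 and 7.16 with DMSO. Its levels were 7.50, 7.45 and 7.30 in shControl cells with TMZ and 7.40, 7.23 and 7.34 with DMSO. NFKB1 was lower in shp105 cells with TMZ, with a difference of -0.25 (SE 0.07, limma's adjusted p = 0.0204), whereas its difference of -0.12 with DMSO did not pass (adjusted p = 0.260). That call was lost without replicate 1 or 3 of shp105 cells with TMZ or replicate 1 or 2 of shControl cells with TMZ (limma's adjusted p between 0.0585 and 0.0903), and with only the compared groups fitted (limma's adjusted p = 0.0558). Of some glial and neural markers picked for naming, VIM, CD44, NES, GFAP and MBP were above the controls on all 12 arrays. PDGFRA was above them on 2, and S100B and AQP4 on none. In the lists that hold these markers, 10 of 19 oligodendrocyte-lineage genes were above the controls on all 12 arrays and 6 on none. Of the astrocyte and neural stem cell genes, 12 of 20 were above them on all 12 arrays and 6 on none.

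SOX4 separated the lines far more than any other gene of the group. Because SOX4 and its neighbour CASC15 were both higher in shp105 cells, and SOX5 was lower, the 250 bases before the annotated start of these genes are shown from RefSeq (GRCh38.p14). The table of promoters held 4 of the 10 genes. Capitals mark E boxes, written CANNTG and the same on both strands, the kind of sequence that OLIG proteins bind.
SOX4, chr6:21593501-21593750, plus strand: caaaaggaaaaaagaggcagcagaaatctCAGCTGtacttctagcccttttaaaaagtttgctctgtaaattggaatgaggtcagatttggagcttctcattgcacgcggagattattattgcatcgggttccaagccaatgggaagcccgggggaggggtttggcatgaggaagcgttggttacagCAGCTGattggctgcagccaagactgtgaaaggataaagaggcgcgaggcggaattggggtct
CASC15, chr6:21666163-21666412, plus strand: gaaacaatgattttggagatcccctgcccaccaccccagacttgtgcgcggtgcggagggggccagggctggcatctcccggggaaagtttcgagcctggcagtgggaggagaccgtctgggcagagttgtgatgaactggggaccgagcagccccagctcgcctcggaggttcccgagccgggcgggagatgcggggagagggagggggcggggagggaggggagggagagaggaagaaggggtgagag
SOX5, chr12:24562492-24562741, minus strand: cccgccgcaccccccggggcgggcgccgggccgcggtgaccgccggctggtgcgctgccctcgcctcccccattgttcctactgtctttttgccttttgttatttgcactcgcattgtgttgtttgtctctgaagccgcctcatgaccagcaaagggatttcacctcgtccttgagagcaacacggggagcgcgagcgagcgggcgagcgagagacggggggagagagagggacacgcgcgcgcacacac
The SOX4 stretch held 2 E boxes, both of the form CAGCTG, and 4 copies of CCAAT, counting both strands. At least 1 E box was found in 61.8% of 35116 promoters of this length and at least 1 CCAAT in 32.0%. The shares with as many copies as SOX4 were not computed. The stretches of CASC15 and SOX5 held neither motif but 1 copy each of AACAAT, a sequence that SOX proteins bind, which 8.98% of promoters held on either strand. GC content was 48.8% for SOX4, 66.8% for CASC15 and 65.6% for SOX5.

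In the SoxC pair, SOX4 was higher in shp105 cells, by an amount that depended on the probe set. Its probe set of highest mean, 201417_at, had levels of 8.74, 8.77 and 8.97 in shp105 cells with TMZ and 8.95, 8.99 and 9.00 with DMSO. In shControl cells it had 3.01, 2.73 and 3.14 with TMZ and 2.94, 2.76 and 3.10 with DMSO. Every shp105 array thus lay above 8.7 and every shControl array within the range of the controls. The measured difference of this probe set, shp105 minus shControl, was 5.87 with TMZ and 6.05 with DMSO (SE 0.11 each). Because its own shControl signal was within the controls, 201417_at was at least 27.2-fold higher in shp105 cells with TMZ and at least 28.1-fold higher with DMSO. That bound holds for 201417_at alone, since the SOX4 probe sets 201418_s_at and 1567906_at were above the controls on all 6 shControl arrays. Whether these probe sets read the same transcript as 201417_at was not checked. Each bound sets the mean of the shp105 arrays against the mean, over the shControl arrays, of the brightest control or of the probe set itself where that was higher. The bounds leave out the spread among arrays. In bulk RNA, more cells with a transcript and more transcript per cell cannot be told apart.

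**Figure D1:**
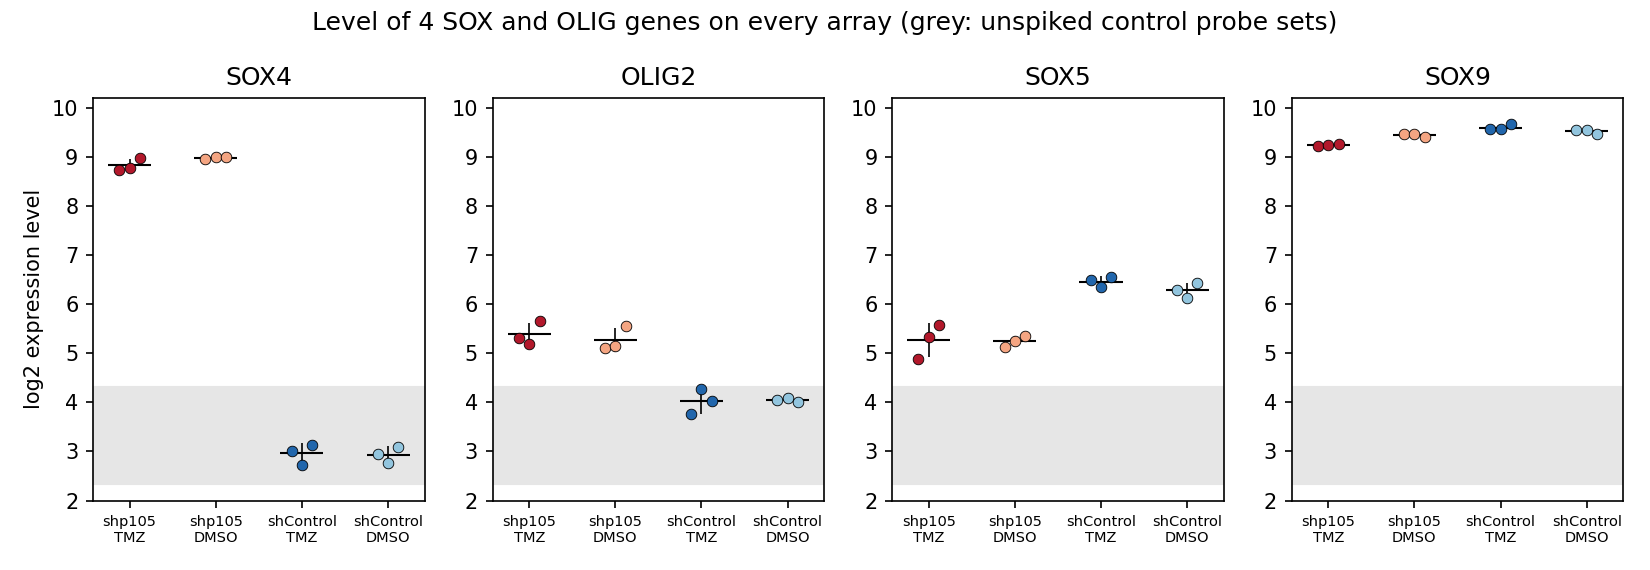
Log2 level of SOX4, OLIG2, SOX5 and SOX9 on each of the 12 arrays, by group, with the group mean (horizontal line) and SD (vertical line), n = 3. The grey band spans the 27 control probe sets, between 2.33 and 4.30. SOX4, drawn for 201417_at, lies far above the band in shp105 cells and inside it in shControl cells, OLIG2 lies above it in shp105 cells only, and SOX5 is lower in shp105 cells.

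SOX4 was read by 6 probe sets, and they did not give the same size of difference. The probe set 201416_at read 7.50, 7.40 and 7.76 in shp105 cells with TMZ, against 2.90, 3.01 and 3.18 in shControl cells with TMZ, a difference of 4.53. The probe set 213668_s_at read 6.47, 5.82 and 5.65 in shp105 cells with TMZ, against 3.34, 3.97 and 3.63 in shControl cells with TMZ, a difference of 2.33. Both were therefore at control level in shControl cells, as was 201417_at. The probe set 201418_s_at read 5.92, 6.26 and 6.29 in shp105 cells with TMZ, against 5.46, 5.44 and 5.36 in shControl cells with TMZ. It was above the controls on all arrays of both lines and differed by 0.73 with TMZ and 0.66 with DMSO. For 4 of the 6 probe sets, all 6 shp105 arrays lay above all 6 shControl arrays. The arrays overlapped for 213665_at, which differed by 0.71 with TMZ and 0.20 with DMSO, and for 1567906_at, which was above the controls on all 12 arrays and differed by 0.10 with TMZ and 0.16 with DMSO. The mean of all 6 probe sets differed by 2.38 with TMZ and 2.29 with DMSO. All 6 were higher in shp105 cells on average, under either treatment.

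**Figure D2:**
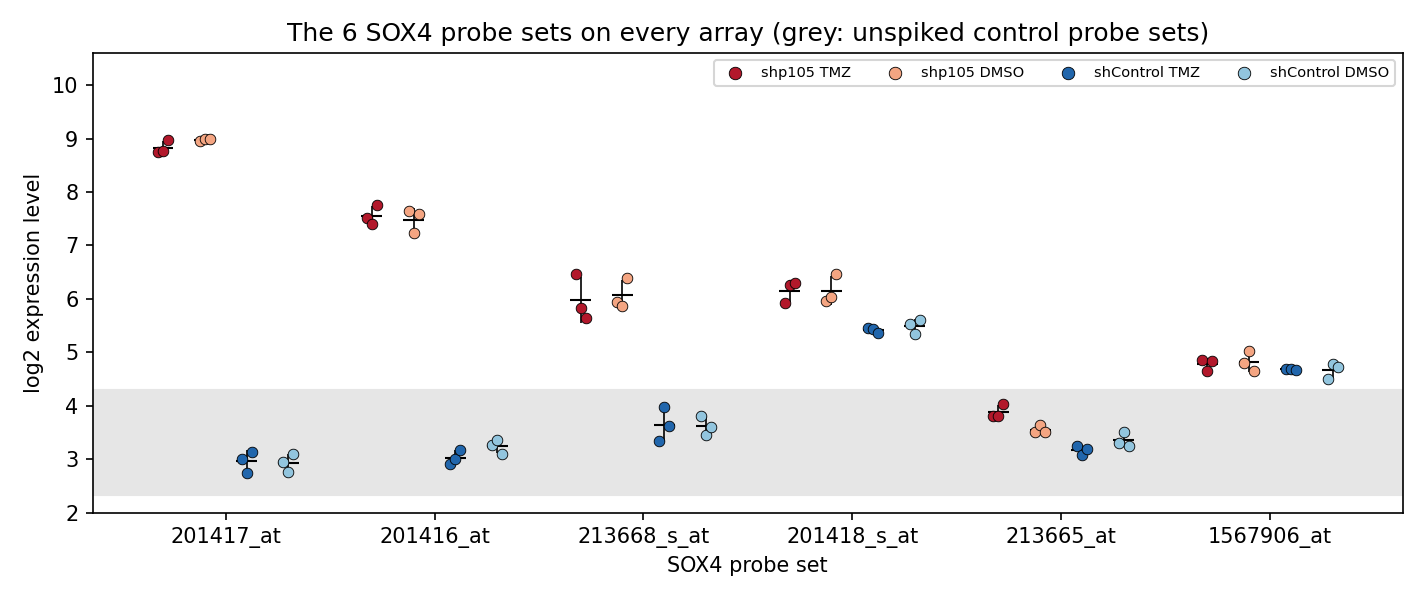
Log2 level of the 6 SOX4 probe sets on each of the 12 arrays, by group, with mean and SD (n = 3). The grey band spans the 27 control probe sets. Within a probe set, shp105 arrays are above shControl arrays without overlap for 4 of the 6, and the gap shrinks to 0.10 for 1567906_at with TMZ.

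SOX11, which acts beside SOX4 in immature neurons and progenitors, did not follow it. Its levels were 3.33, 3.17 and 3.42 in shp105 cells with TMZ, against 3.43, 3.43 and 3.64 in shControl cells with TMZ. With DMSO they were 3.35, 3.46 and 3.36 in shp105 cells, against 3.31, 3.39 and 3.58 in shControl cells. All 12 values were within the controls, and none of the 3 SOX11 probe sets was above them on any array, so a difference at so low a level could not be measured.

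OLIG2, the oligodendrocyte-lineage factor, was the other gene with a higher level in shp105 cells. Its levels were 5.30, 5.20 and 5.65 in shp105 cells with TMZ and 5.11, 5.15 and 5.55 with DMSO. In shControl cells they were 3.76, 4.27 and 4.02 with TMZ and 4.06, 4.09 and 4.01 with DMSO. No shControl array reached the lowest shp105 array. The difference was 1.37 with TMZ and 1.22 with DMSO (SE 0.15 each). In shControl cells this probe set, 213825_at, was above the controls on 2 of 3 arrays with TMZ and on none with DMSO. With the bound used for SOX4, its mean in shp105 cells was at least 2.36-fold higher with TMZ and 2.15-fold higher with DMSO. These bounds hold for the means of 213825_at alone and leave out the spread among arrays. The second OLIG2 probe set, 213824_at, was above the controls on only 1 array. It read 3.33, 4.25 and 3.34 in shp105 cells with TMZ, against 3.50, 3.21 and 3.66 in shControl cells with TMZ, and its difference was 0.18 with TMZ and -0.24 with DMSO. The higher level of OLIG2 thus rests on 1 of its 2 probe sets. The mean of both differed by 0.77 with TMZ and 0.49 with DMSO.

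OLIG1, whose gene lies beside OLIG2 and whose product works with it in oligodendrocyte maturation, stayed within the controls on every array. Its levels were 2.70, 2.71 and 2.83 in shp105 cells with TMZ, against 2.50, 2.62 and 2.95 in shControl cells with TMZ. With DMSO they were 2.76, 2.64 and 2.75 in shp105 cells, against 2.73, 2.73 and 2.86 in shControl cells.

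SOX5, a SoxD factor without an activation domain of its own that modulates SoxE factors, was the gene of the group that was lower in shp105 cells by more than 2-fold. Its levels were 4.89, 5.34 and 5.58 in shp105 cells with TMZ and 5.13, 5.25 and 5.35 with DMSO. In shControl cells they were 6.49, 6.35 and 6.55 with TMZ and 6.29, 6.13 and 6.43 with DMSO. The lines did not overlap, with all shp105 arrays below all shControl arrays. The difference was -1.19 with TMZ and -1.04 with DMSO (SE 0.15 each). This was seen in 1 of 4 SOX5 probe sets. The other 3 were above the controls on at most 4 arrays, and their differences ran between -0.26 and 0.04 with TMZ and between -0.12 and 0.14 with DMSO. The mean of all 4 differed by -0.37 with TMZ and -0.28 with DMSO.

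SOX6, the second SoxD factor, showed no such gap. Its levels were 6.63, 6.61 and 6.57 in shp105 cells with TMZ, against 6.54, 6.22 and 6.24 in shControl cells with TMZ. With DMSO they were 6.60, 6.46 and 6.60 in shp105 cells, against 6.61, 6.51 and 6.31 in shControl cells. The ranges were apart with TMZ, by less than the spread within shControl cells, and overlapped with DMSO. Its differences were 0.27 with TMZ and 0.08 with DMSO (SE 0.10 each), and the mean of its 8 probe sets differed by -0.05 with TMZ.

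SOX9, the SoxE factor of early gliogenesis, was well above the controls everywhere and slightly lower in shp105 cells. Its levels were 9.22, 9.23 and 9.27 in shp105 cells with TMZ and 9.47, 9.47 and 9.40 with DMSO. In shControl cells they were 9.56, 9.56 and 9.66 with TMZ and 9.55, 9.54 and 9.47 with DMSO. All shp105 arrays were below all shControl arrays, although with DMSO the nearest arrays of both lines read 9.47. The difference was -0.36 with TMZ and -0.08 with DMSO (SE 0.05 each). The second SOX9 probe set, 202935_s_at, differed by -0.27 with TMZ and 0.04 with DMSO, and its arrays overlapped between the lines with DMSO.

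The remaining SoxE factors and SOX2 did not separate the lines. SOX10 had levels of 5.75, 5.67 and 5.25 in shp105 cells with TMZ, against 5.50, 5.68 and 5.61 in shControl cells with TMZ, and with DMSO 5.55, 5.66 and 5.66 in shp105 cells, against 5.41, 5.69 and 5.59 in shControl cells. Its differences were -0.04 with TMZ and 0.06 with DMSO (SE 0.12 each). SOX8 read 2.98, 3.02 and 2.84 in shp105 cells with TMZ, against 3.36, 3.18 and 2.92 in shControl cells with TMZ, all within the controls, as were its DMSO arrays. SOX2 had levels of 5.12, 5.15 and 5.06 in shp105 cells with TMZ, against 5.19, 5.32 and 5.00 in shControl cells with TMZ. With DMSO SOX2 read 5.05, 5.09 and 4.92 in shp105 cells, against 4.90, 5.29 and 5.11 in shControl cells. The SOX2 arrays of both lines overlapped under either treatment, and its 4 probe sets differed by between -0.06 and 0.15 with TMZ and between -0.21 and 0.08 with DMSO.

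Counted together, 3 of the 10 genes differed between the lines by at least 2-fold under either treatment, SOX4 and OLIG2 upwards and SOX5 downwards in shp105 cells. Of all 19775 genes, each also read by its probe set of highest mean, 1.75% did so with TMZ and 1.77% with DMSO. With the mean of each gene's probe sets, SOX4 was the 1 gene of the 10 past 2-fold under either treatment. The share of all genes was not computed for that summary. For 4 of the 10 genes (SOX4, OLIG2, SOX5 and SOX9) all 6 arrays of a line lay beyond all 6 of the other, as they did for 18.1% of all genes. The genes were chosen with these differences known, so nothing is read from either count. The median absolute difference of the 10 genes was 0.24 with TMZ, against 0.12 over all genes, and 0.08 with DMSO, against 0.11 over all genes. For the same reason nothing is read from these medians.

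**Figure D3:**
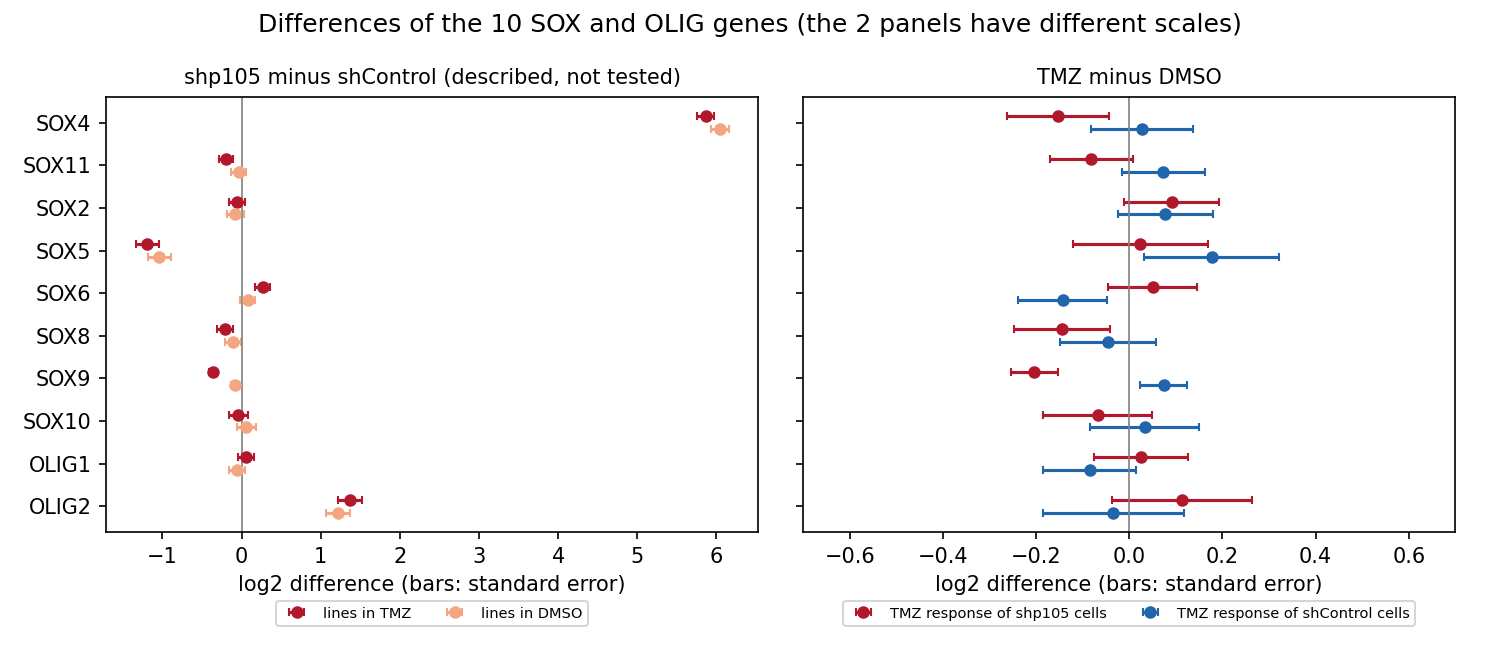
Log2 differences of the 10 genes with their standard errors, shp105 minus shControl on the left and TMZ minus DMSO on the right, where the horizontal scale is finer. SOX4 (5.87 and 6.05), OLIG2 and SOX5 stand away from 0 on the left, and all 20 responses to TMZ on the right lie between -0.20 and 0.18.

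A technical measure moved with the lines. The 18 probe sets of the spiked hybridization controls averaged 11.32 ± 0.13 in shp105 cells with TMZ, 11.13 ± 0.10 in shp105 cells with DMSO, 10.95 ± 0.09 in shControl cells with TMZ and 10.63 ± 0.05 in shControl cells with DMSO (SD, n = 3 each). With that level as a covariate, an alternative added after it had been seen, the SOX4 difference was 6.03 with TMZ and 6.26 with DMSO and the OLIG2 difference 1.35 with TMZ and 1.20 with DMSO. The SOX5 difference became -0.79 with TMZ and -0.50 with DMSO, and that of SOX10 -0.34 with TMZ and -0.35 with DMSO. The NFKB1 call with TMZ was lost with this covariate (-0.18, limma's adjusted p = 0.565).

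The response to TMZ was not used to choose the genes and was tested with limma in each line. In shp105 cells, 0 of the 10 genes passed at an adjusted p of 0.05, and 0.865% of all genes did. Only SOX9 had an unadjusted p under 0.05, as did 16.3% of all genes. Its response of -0.20 (SE 0.05) had an unadjusted p of 0.001909 and an adjusted p of 0.0805 in limma's fit. All 3 TMZ arrays of shp105 cells, 9.22 to 9.27, lay below all 3 DMSO arrays, 9.40 to 9.47. SOX9 did pass where genes below the median level were left out (limma's adjusted p = 0.0159) and where eBayes used trend and robust fitting (limma's adjusted p = 0.0170). The second SOX9 probe set read 8.20, 8.25 and 8.11 with TMZ, against 8.53, 8.09 and 8.35 with DMSO in shp105 cells, which overlapped.

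SOX4 (201417_at), at its high level in shp105 cells, gave a TMZ response of -0.15 (SE 0.11, limma's adjusted p = 0.531). The 95% confidence interval of that response ran from -0.39 to 0.09. OLIG2 gave 0.11 (SE 0.15, adjusted p = 0.763) and SOX5 0.02 (SE 0.15, adjusted p = 0.953) in the same limma fit. For SOX8 the TMZ arrays of shp105 cells were also below the DMSO arrays, but all were within the controls. With SOX9, this made 2 of 10 genes whose TMZ and DMSO arrays did not overlap in shp105 cells, where 20.4% of all genes did not overlap. For the 7 genes above the controls on all 6 shp105 arrays, the 95% intervals lay between -0.39 and 0.44, so that a 2-fold change of their probe sets in either direction lay outside each. For SOX11, SOX8 and OLIG1, which were within the controls, no change could be measured.

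In shControl cells, 0 of the 10 genes passed, against 0.369% of all genes, and none had an unadjusted p under 0.05, against 11% of all genes. The lowest adjusted p was that of SOX6, at -0.14 (SE 0.10, limma's adjusted p = 0.631). SOX5 responded by 0.18 (SE 0.15, adjusted p = 0.714) and SOX9 by 0.07 (SE 0.05, adjusted p = 0.644) in the same limma fit. SOX9 was the 1 gene of the 10 whose TMZ and DMSO arrays did not overlap in shControl cells, with TMZ above, as 20.3% of all genes did not overlap. For the 5 genes above the controls on all 6 shControl arrays, the 95% intervals lay between -0.35 and 0.50. The SOX4 probe set 201417_at stayed within the controls with either treatment, while 201418_s_at, above them, responded by -0.07 and 1567906_at by 0.02.

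The responses of both lines were then compared with each other. Of the 10 genes 0 passed, and 0% of all genes did. SOX9 alone had an unadjusted p under 0.05, a share that was 6.4% over all genes. Its difference of responses was -0.28 (SE 0.07, limma's adjusted p = 0.554), and its 95% interval ran from -0.43 to -0.12. For SOX4 it was -0.18 (SE 0.15, limma's adjusted p = 0.895), and for OLIG2 it was 0.15 (SE 0.21, limma's adjusted p = 0.943).

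The genes beside SOX4 on the chromosome were compared between the lines with limma. CASC15, the next measured gene and the source of a long non-coding RNA, was higher in shp105 cells. Its levels were 5.85, 5.79 and 5.60 in shp105 cells with TMZ and 5.74, 5.62 and 5.67 with DMSO, against 4.75, 4.35 and 4.67 in shControl cells with TMZ and 4.63, 4.44 and 4.36 with DMSO. The lines did not overlap. The difference was 1.16 with TMZ (SE 0.11, limma's adjusted p = 1.299e-05) and 1.20 with DMSO (SE 0.11, limma's adjusted p = 9.81e-06). The DMSO call was lost with the spike-in covariate (1.04, limma's adjusted p = 0.0774). It rests on 1 of 4 CASC15 probe sets, since the other 3 were above the controls on at most 3 arrays and differed by no more than 0.24.

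The other measured neighbours of SOX4 did not pass. E2F3, a cell-cycle transcription factor, differed by 0.03 with TMZ and 0.01 with DMSO. CDKAL1, a tRNA-modifying enzyme, differed by -0.20 with TMZ and 0.02 with DMSO. The non-coding NBAT1 differed by 0.07 with TMZ and -0.22 with DMSO and was above the controls on no array. The lowest adjusted p of these genes was 0.143 (CDKAL1 with TMZ, limma).

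**Figure D4:**
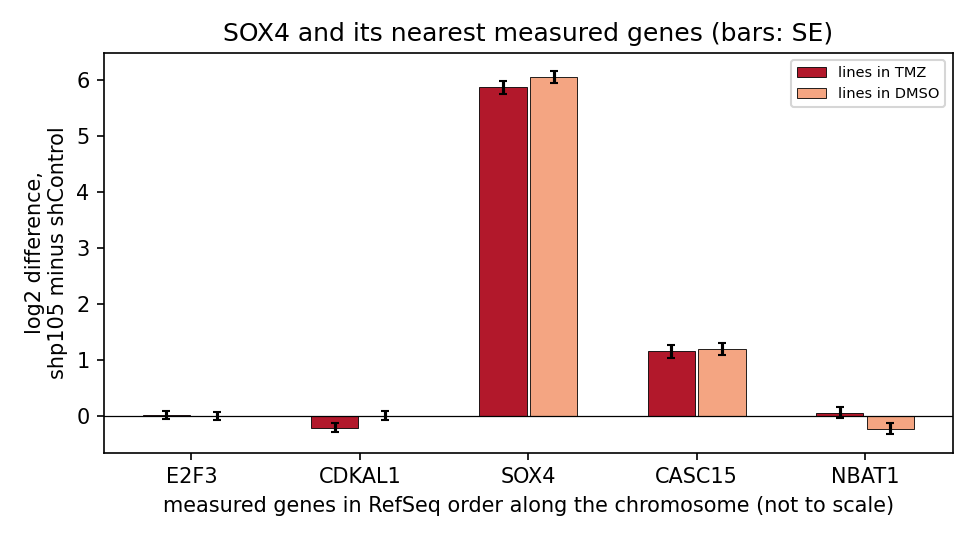
Log2 difference (shp105 minus shControl, bars with standard error) of SOX4 and the nearest 2 measured genes on each side, in RefSeq order and not to scale. SOX4 (201417_at, 5.87 with TMZ, 6.05 with DMSO) and CASC15 (1.16 and 1.20) are higher in shp105 cells, and the other 3 genes lie between -0.22 and 0.07.

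Profiles like that of SOX4 (201417_at) over the 12 arrays were sought by the root mean square distance between log2 values after each gene's own mean had been subtracted. The nearest were LIMCH1, an activator of non-muscle myosin (0.22), CDH11, a mesenchymal cadherin (0.38), the long non-coding RNA UCA1 (0.56), NMU, the neuropeptide neuromedin U (0.79), and CLIC2, a chloride intracellular channel protein (1.13). LIMCH1, for example, had levels of 9.15, 9.01 and 9.21 in shp105 cells with TMZ, against 3.84, 3.51 and 3.58 in shControl cells with TMZ. For OLIG2 the nearest were GMPR, a guanosine monophosphate reductase (0.14), ID2, an inhibitor of helix-loop-helix proteins (0.16), the collagen gene COL5A2 (0.17), the carboxypeptidase CPA4 (0.17) and the cathepsin CTSK (0.18). These genes share the 12 arrays and a gap between the lines with SOX4 or OLIG2, and the distances are descriptions.

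Genes that work with or are reported to follow these factors were then counted between the lines with limma. Their lists, like the genes above, were chosen with earlier results of these data known. The line shares and line p-values in the paragraphs on the lists are therefore descriptions. Nothing is read from a list's line share being above or below that of all genes. Of 111 measured genes in 7 lists, 15 were higher and 12 lower in shp105 cells with TMZ, or 24.3%, against 21.1% of all genes. With DMSO 15 were higher and 16 lower, or 27.9%, against 19.9% of all genes. With the spike-in covariate, 11 passed with TMZ and 5 with DMSO. ID2, ID3, TGFBI, BAMBI and GAP43 passed under either treatment, and with TMZ so did LEF1, GJA1, SLC1A3, NFIB, LTBP1 and TGFB2. Every other line call of a listed gene given in the paragraphs on the lists was lost with that covariate. A lost call did not always go with a smaller difference. Those of CSPG4 and PTCH1, and of BCAN with TMZ, were larger in that fit, and those of DICER1 and FZD5 smaller. None of the 11 other SOX family genes passed under either treatment in limma's fit, with 0 at an unadjusted p under 0.05 with TMZ and 1 with DMSO. The smallest p was that of SOX12 with TMZ (0.11, limma's adjusted p = 0.223) and that of SOX18 with DMSO (-0.25, limma's adjusted p = 0.142), which was above the controls on no array. SOX18 passed without replicate 1 of shControl cells with DMSO (-0.35, limma's adjusted p = 0.0410). ID3 and ID2 had the largest differences of the 111 genes under either treatment. Their products bind E proteins and so keep them from OLIG proteins.

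In the list of partners and inhibitors, 5 of 17 measured genes were higher and 1 lower in shp105 cells under either treatment. This was 35.3% of the list, against 21.1% of all genes with TMZ and 19.9% with DMSO. ID3 had levels of 9.53, 9.69 and 9.57 in shp105 cells with TMZ, against 7.91, 7.99 and 7.77 in shControl cells with TMZ. Its difference was 1.71 with TMZ (SE 0.07, limma's adjusted p = 1.769e-08) and 1.51 with DMSO (SE 0.07, limma's adjusted p = 4.842e-08). ID2 differed by 1.35 with TMZ (SE 0.06, limma's adjusted p = 2.82e-08) and 1.34 with DMSO (SE 0.06, limma's adjusted p = 2.982e-08). ID1 differed by 0.47 with TMZ (SE 0.07, limma's adjusted p = 0.000379), a call lost with the spike-in covariate (0.51, limma's adjusted p = 0.0546). LEF1, a partner of beta-catenin, was lower, with differences of -0.55 with TMZ and -0.61 with DMSO (SE 0.05 each). Also higher in this list, and chosen for naming after their values were seen, were TLE1 under either treatment, TCF3 with TMZ, and ID1 and TCF4 with DMSO. The list's median difference was 0.06 with TMZ and 0.18 with DMSO, against -0.01 over all genes under either treatment.

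Among oligodendrocyte-lineage genes, which OLIG2 and SOX10 govern in normal tissue, 2 of 19 were higher and none lower with TMZ, and 1 was higher with DMSO. These shares, 10.5% with TMZ and 5.26% with DMSO, were below the 21.1% and 19.9% of all genes. CSPG4, the NG2 proteoglycan of oligodendrocyte precursors, was higher by 0.66 with TMZ (SE 0.11, limma's adjusted p = 0.00138) and 0.65 with DMSO (SE 0.11, limma's adjusted p = 0.00157). Both CSPG4 calls were lost with the spike-in covariate (limma's adjusted p = 0.0924 with TMZ and 0.233 with DMSO). The CSPG4 differences in that fit were not smaller, at 0.76 with TMZ and 0.78 with DMSO. BCAN, a brain proteoglycan, was higher by 0.52 with TMZ (SE 0.10, limma's adjusted p = 0.00366), which the mean of its 4 probe sets did not show (0.08, limma's adjusted p = 0.366). The BCAN call was also lost with the spike-in covariate (limma's adjusted p = 0.110), where its difference was 0.65. The list's median difference was 0.01 with TMZ and 0.05 with DMSO.

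Of the astrocyte and neural stem cell genes, 1 of 20 was higher and 3 were lower with TMZ, and 1 was higher and 6 lower with DMSO. Together these made 20% with TMZ and 35% with DMSO, against 21.1% and 19.9% of all genes. The gap-junction gene GJA1 was higher by 0.57 with TMZ and 0.56 with DMSO (SE 0.06 each). The glutamate transporter gene SLC1A3 was lower, with a difference of -0.59 under either treatment (SE 0.07), and so was NFIB, a gliogenic factor that acts with SOX9, with -0.34 with TMZ and -0.32 with DMSO (SE 0.06 each). Of the neuronal genes, 3 of 16 were lower with TMZ (18.8%, against 21.1% of all genes passing) and 4 with DMSO (25%, against 19.9%), and none was higher. The growth-cone gene GAP43 differed by -1.03 with TMZ and -1.13 with DMSO (SE 0.08 each), and SNAP25, of the synaptic fusion machinery, by -0.38 with TMZ and -0.50 with DMSO (SE 0.07 each).

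Of 9 genes reported as SOX4 targets, 2 were higher and 1 lower in shp105 cells under either treatment (33.3%, against 21.1% of all genes with TMZ and 19.9% with DMSO). DICER1, which encodes the microRNA-processing enzyme, was lower, with differences of -0.56 with TMZ (SE 0.06, limma's adjusted p = 4.287e-05) and -0.75 with DMSO (SE 0.06, limma's adjusted p = 3.618e-06). The Hedgehog receptor gene PTCH1 was higher by 0.60 with TMZ (SE 0.11, limma's adjusted p = 0.00211), and the Wnt receptor gene FZD5 by 0.40 with TMZ (SE 0.07, limma's adjusted p = 0.00124). With the mean of each gene's probe sets the call for DICER1 with TMZ (-0.20, limma's adjusted p = 0.0575) and that for PTCH1 with DMSO (0.07, limma's adjusted p = 0.399) were lost. With the spike-in covariate all 3 genes lost both calls. Limma's adjusted p was then 0.0560 for DICER1, 0.0685 for PTCH1 and 0.194 for FZD5 with TMZ, and 0.0623, 0.204 and 0.598 in the same order with DMSO. The differences in that fit, again in this order, were -0.43, 0.77 and 0.36 with TMZ and -0.59, 0.77 and 0.26 with DMSO. Genes of the TGF-beta pathway, which induces SOX4 in several cell types, included 5 of 19 that were higher and 4 lower with TMZ, and 6 that were higher and 4 lower with DMSO. The passing genes made up 47.4% of this list with TMZ and 52.6% with DMSO, against 21.1% and 19.9% of all genes. They included TGFBI, a secreted matrix protein induced by the pathway, which was higher by 0.62 with TMZ and 0.77 with DMSO (SE 0.05 each), and BAMBI, a decoy receptor, which was higher by 1.31 with TMZ and 1.22 with DMSO (SE 0.14 each). LTBP1, which holds latent TGF-beta in the matrix, was lower, with differences of -0.59 with TMZ and -0.53 with DMSO (SE 0.07 each).

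**Figure D5:**
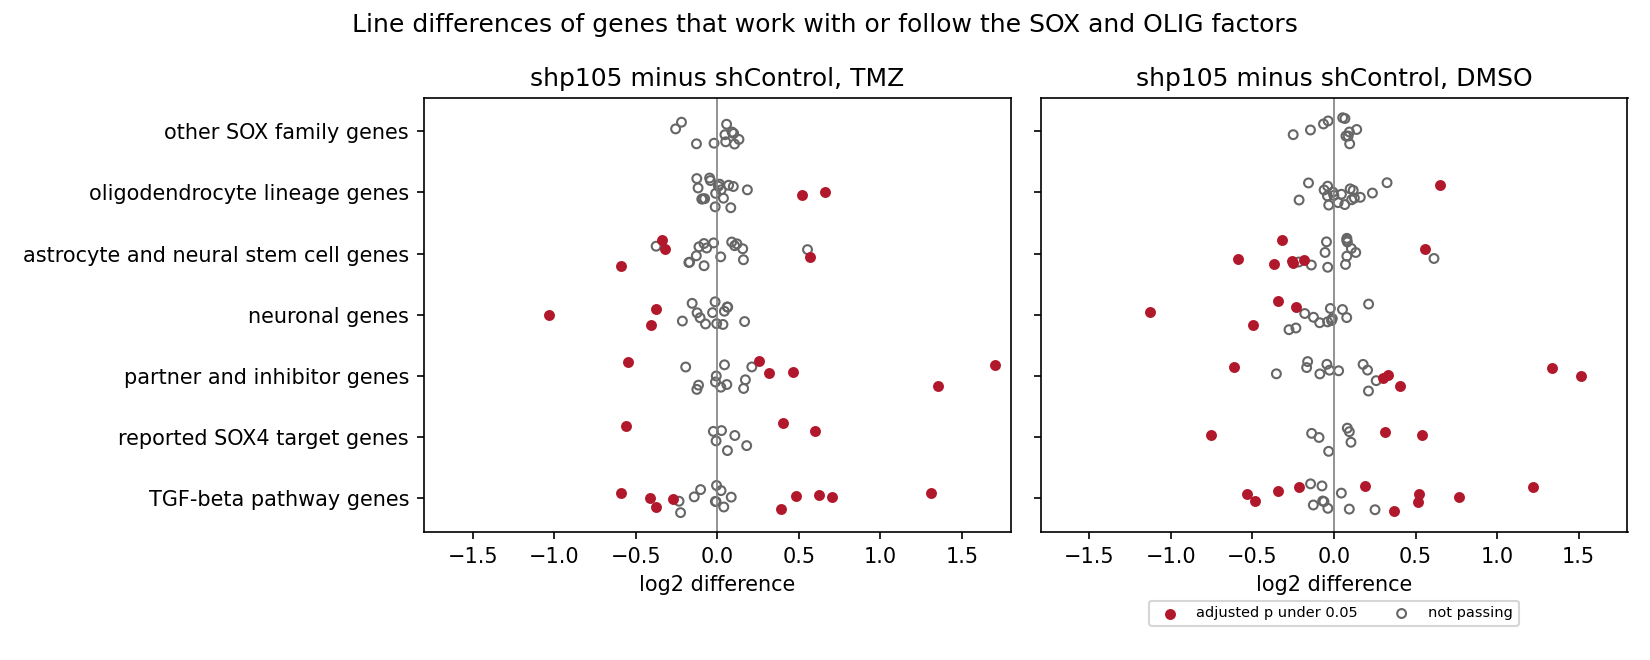
Log2 difference (shp105 minus shControl) of each measured gene of the 7 lists, with TMZ on the left and DMSO on the right. Filled points passed limma's test (27 of 111 with TMZ, 31 of 111 with DMSO), in lists chosen with earlier results of these data known. ID3 and ID2 are the filled points farthest to the right among partners and inhibitors, and GAP43 the one farthest to the left among neuronal genes.

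Of the listed genes, 2 of 111 responded to TMZ in shp105 cells, or 1.8%, against 0.865% of all genes. They were the neural progenitor factor PAX6, higher by 0.30 (SE 0.05, limma's adjusted p = 0.0226), and the RNA-binding protein gene MSI1, lower with a response of -0.33 (SE 0.06, limma's adjusted p = 0.0260), which was above the controls on no array. The PAX6 call was lost without replicate 1 or 3 of shp105 cells with DMSO or replicate 2 or 3 of shp105 cells with TMZ (limma's adjusted p between 0.0598 and 0.0858). It was also lost with the mean of its probe sets (0.0777), with each probe set on its own (0.0617), with only the compared groups (0.184) and with the spike-in covariate (0.130), where each value is limma's adjusted p. The MSI1 call was lost without any 1 replicate of shp105 cells with DMSO or replicate 2 or 3 of shp105 cells with TMZ (limma's adjusted p between 0.0776 and 0.0941). It was also lost with the replicate block (0.0506), array weights (0.0581), each probe set on its own (0.0641), trend and robust fitting (0.0686), the spike-in covariate (0.136) and only the compared groups (0.156), again as limma's adjusted p. In limma's fit 15 of the 111, or 13.5%, had an unadjusted p under 0.05 in shp105 cells, against 16.3% of all genes. In shControl cells 0 of 111 passed, against 0.369% of all genes, and 11, or 9.91%, had an unadjusted p under 0.05, against 11% of all genes. In the difference of responses 0 of 111 passed, as did 0% of all genes, and 7, or 6.31%, had an unadjusted p under 0.05, against 6.4% of all genes.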

How the data were processed

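Total RNA of the 12 U-87 MG samples was hybridized to Affymetrix arrays of 54675 probe sets. The deposited values are log2 levels per probe set. The submitters' processing notes name RMA and Affymetrix Power Tools for them, without versions. For the genome build, the annotation release and any filter the sources used here give nothing. Symbols came from this array's probe list, updated through the RefSeq gene table. A single symbol was found for 41097 probe sets (54 kept an old symbol), several for 1801 and none for 11777. Each gene was represented by its probe set of highest mean over the 12 arrays, and no gene was left out for a low level. The number of arrays limits the precision.

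limma (lmFit, eBayes, 2-sided) was fitted to the 4 group means over all 12 arrays and 19775 genes, with Benjamini-Hochberg adjustment over all genes and a threshold of 0.05. The fit was first tested on simulated data. All 10 genes, NFKB1, the 2 nearest measured genes on either side of SOX4 and of OLIG1 and OLIG2, the 5 nearest profiles of SOX4 and OLIG2, and up to 4 passing genes of each list by smallest p were to be named, or the gene with the smallest p as a value where none passed. The genes and lists were chosen with earlier results of these data known. Same-numbered replicates of different groups did not deviate together (r between -0.14 and 0.12), so the numbers were not used as pairs. No pair of arrays held identical values.

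The alternatives were another gene summary, single probe sets, a filter on dim genes, median centring, quantile normalization, array weights, another variance model, only the compared groups, a replicate block, and each array left out. A spike-in covariate was added after the data had been seen. R 4.3.3, limma 3.58.1, the data.table package (version 1.17.8), Python 3.11.15, numpy 2.4.6 and matplotlib 3.10.9 were used.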

Additional observations from a re-analysis of the deposited data

Results flagged for a closer look

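The TMZ and DMSO arrays of SOX9 were apart in both lines, in opposite directions, although neither response passed in limma's fit (adjusted p = 0.0805 in shp105 cells and 0.644 in shControl cells). In shp105 cells every TMZ array (9.22, 9.23 and 9.27) was below every DMSO array (9.47, 9.47 and 9.40). In shControl cells every TMZ array (9.56, 9.56 and 9.66) was above every DMSO array (9.55, 9.54 and 9.47), with the nearest at 9.56 and 9.55. The 95% interval of the shControl response, -0.04 to 0.19, held 0, so a change there was not shown. The difference of both responses, shp105 minus shControl, was -0.28 (SE 0.07), with an unadjusted p of 0.002467 and an adjusted p of 0.554 in limma's fit, which did not pass. Such opposite responses without overlap were found for 110 of 19775 genes, or 0.556%. The second SOX9 probe set, 202935_s_at, overlapped in both lines. It read 8.20, 8.25 and 8.11 with TMZ, against 8.53, 8.09 and 8.35 with DMSO in shp105 cells, and 8.47, 8.45 and 8.45 with TMZ, against 8.50, 8.34 and 8.00 with DMSO in shControl cells. Its difference of responses was -0.31. Over all alternatives, the spike-in covariate among them, the SOX9 difference of responses lay between -0.30 and -0.24 and never passed. The cause of this pattern was not tested.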

How the results depend on the processing

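With a gene's probe sets averaged, in place of the brightest one, the line difference of SOX4 was 2.38 with TMZ and 2.29 with DMSO, and that of OLIG2 0.77 with TMZ and 0.49 with DMSO (SOX5 -0.37 and -0.28). This averages in probe sets near the controls and, for SOX4, probe sets above the controls in both lines that differed by 0.10 to 0.73. The filter on genes below the median level left values for only SOX6 and SOX9 of the 10 genes. In shp105 cells SOX9, but not SOX6, responded to TMZ under that filter. With trend and robust fitting SOX9 was the 1 of all 10 genes that responded. In the other alternatives 0 responded, and the cause was not tested. With the spike-in covariate, chosen after seeing the data, the SOX4 difference with DMSO was 6.26, and the passing list genes were 11 with TMZ and 5 with DMSO, against 27 and 31. The spike-in level moved with the groups, and the cause was not tested. Leaving out each array gave 5.75 to 5.96 (TMZ) and 5.96 to 6.13 (DMSO) for SOX4, 1.23 to 1.49 (TMZ) and 1.08 to 1.30 (DMSO) for OLIG2, 26 to 32 (TMZ) and 25 to 32 (DMSO) passing list genes, and 0 of the 10 genes responding. The replicate block gave 28 passing list genes with TMZ and 32 with DMSO, and still 0 of the 10 genes responding. Over all tested values of the named genes and alternatives, 2755 kept their result, 78 lost a call, 18 gained a call and none reversed. The 2755 include values that passed neither in the main fit nor in the alternative, so they do not count calls kept. The fit with only the compared groups gives no difference of responses. Median centring and quantile normalization moved the median of all genes by less than 0.01. Levels within the controls limit SOX11, SOX8 and OLIG1 on all arrays, and the SOX4 probe set 201417_at, but not SOX4 as a whole, in shControl cells.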

Other observations

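The measured neighbours of the adjacent genes OLIG1 and OLIG2 were EPCIP and EPCIP-AS1 on one side and LOC101928107 and IFNAR2, a chain of the type I interferon receptor, on the other. None of them passed as higher in shp105 cells, where OLIG2 had the higher level. EPCIP differed by -0.21 with TMZ and -0.07 with DMSO and EPCIP-AS1 by -0.30 with TMZ and -0.07 with DMSO, without passing. LOC101928107 differed by -0.21 with TMZ and 0.19 with DMSO, also without passing, and was above the controls on 2 arrays. IFNAR2 was lower in shp105 cells, with a difference of -0.23 with TMZ (SE 0.07, limma's adjusted p = 0.0293) and -0.26 with DMSO (SE 0.07, limma's adjusted p = 0.0201). Its TMZ call was lost without replicate 2 of shp105 cells with TMZ or any 1 replicate of shControl cells with TMZ (limma's adjusted p between 0.0548 and 0.0947). Its DMSO call was lost without replicate 2 or 3 of shp105 cells with DMSO or replicate 1 or 3 of shControl cells with DMSO (limma's adjusted p between 0.0604 and 0.0850). Both calls were also lost with the mean of its probe sets (limma's adjusted p = 0.122 with TMZ and 0.0642 with DMSO). The spike-in covariate removed both as well (limma's adjusted p = 0.294 with TMZ and 0.439 with DMSO). With only the compared groups fitted, the TMZ call was lost (limma's adjusted p = 0.0670).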
